A study of Thermothelomyces thermophilus with 6 samples.

Results

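Starch, a storage polymer of glucose, was set against glucose itself and against no carbon source in Myceliophthora thermophila (also named Thermothelomyces thermophilus), a filamentous fungus that grows at high temperature, by sequencing of messenger RNA. The genes described here are those with their highest level on starch, 132 of the 9110 genes in the deposited table (1.45%). They were selected on these measured values. A gene was taken when its mean level on starch was at least 5 CPM (the count divided by the library total, times 1000000) and at least 2-fold its mean level both on glucose and without carbon, so that its higher level on starch is the choice itself and is given as a description without a test. In all, 140 genes met these levels, and 8 of them are left out because they belong to 19 IDs that the rule excludes by name.

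All 6 libraries came from strain ATCC 42464, precultured at 45 °C on 2% glucose in Vogel's salts (18 h), washed, and kept in the test medium for another 4 h. There were 2 libraries each from mycelium on starch (2%, soluble starch per the series title), on glucose (concentration not given in the sources used here) and without a carbon source. The labels do not say whether the libraries of 1 medium came from separate cultures, so errors and p-values reflect the variation among the sequenced libraries alone, and part or all of it may be technical. No library from before the transfer was analysed here, so each difference is a difference between media after 4 h.

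Starch is too large to enter a hyphal cell, and filamentous fungi first cut it outside the cell. Amylases cut within the chains and glucoamylase releases glucose from the chain ends. In Aspergillus, the transcription factor AmyR switches on the genes of these enzymes when starch or maltose is present, while glucose, the end product, represses many genes for the use of other carbon sources through the factor CreA. Whether AmyR acts on the genes below was not measured in these libraries.

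The reference gene table pairs only 2 of the 132 genes with a symbol. These are gla1 (Mycth_72393), which encodes glucoamylase, and ganA (Mycth_43163), which encodes an endo-galactanase, an enzyme that cuts the galactan side chains of pectin. The remaining 130 genes have no name or product in the sources used here and are given by their ID, with no function attached. Other genes of starch use could therefore not be picked out among them or in the table.

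The libraries held 17726204 to 23635336 counted reads, at which 3 reads correspond to 0.127 to 0.169 CPM. Replicates correlated across all genes at Pearson's r of 0.9988 on starch, 0.9988 on glucose and 0.9981 without carbon, on log2(CPM + 1). Within the 132 genes, the median ratio of the higher to the lower replicate was 1.04 on starch, 1.05 on glucose and 1.08 without carbon. The widest replicate ratios were 1.45 for Mycth_2128843 on starch, 1.66 for Mycth_2026137 on glucose and 2.09 for Mycth_2306708 without carbon. On average, replicate counts differed by more than counting error also among these genes. The mean chi-square per gene was 4.97 on starch, 1.83 on glucose and 1.57 without carbon. Over all genes these means were 2.54, 4.81 and 8.60. A few abundant genes can carry such a mean.

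The 132 genes together took 3.95% and 4.03% of the reads of the starch libraries, against 1.07% and 1.08% of the glucose libraries and 0.929% and 0.916% of the no carbon libraries. Their share was thus high in both starch libraries and low in the other 4, with a glucose share a little above that without carbon. In such bulk samples, fewer cells that express a gene and less of its RNA per cell cannot be told apart. A few genes carried most of this RNA, and the 5 genes with the highest CPM on starch held 53.6% of the summed starch level. A stretch of 6 consecutive genes on the chromosome, described further on, holds 5 of the 132 genes, and these 5 took 2.00% and 2.04% of the reads on starch, 0.490% and 0.496% on glucose, and 0.516% and 0.506% without carbon. The glucoamylase gene alone took 0.253% and 0.262% of the reads on starch, 0.00448% and 0.00482% on glucose, and 0.000958% and 0.000801% without carbon. The bars of read share by library show that these 5 genes form the lowest and tallest segment of both bars on starch, with gla1 as a band that is visible on starch and not on the other media.

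**Figure D1:**
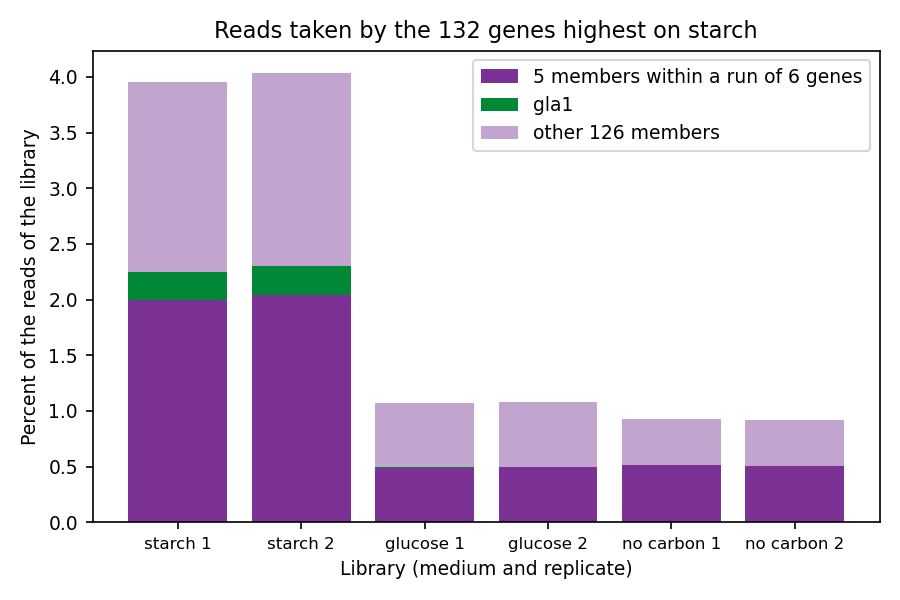
Percent of the reads of each library (vertical axis) taken by the 132 genes, one bar for each of the 6 libraries, split into 5 genes from a stretch of 6 consecutive genes, gla1 and the rest. The starch bars reach 3.95% and 4.03%, and the other 4 bars lie between 0.916% and 1.08%.

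Levels on starch covered a wide range, from 5.05 to 6567 CPM with a median of 51.8 CPM. The same genes had medians of 19.7 CPM on glucose and 12.01 CPM without carbon. All 7322 genes with at least 5 CPM on starch had a median of 57.8 CPM there, close to that of the group. Of the 132 genes, 9 had 1000 CPM or more on starch, 38 had 100 to 1000 CPM, 55 had 20 to 100 CPM and 30 had less than 20 CPM. A set of 27 genes stayed under 5 CPM on both glucose and no carbon. The genes had a median length of 1696.5 bases (quartiles 1242 and 2148.5), against 1700 bases (quartiles 1185 and 2351.75) for all genes with at least 5 CPM on starch.

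The size of the starch difference was modest for most of the genes. The median ratio of mean CPM was 2.99 for starch over glucose and 4.18 for starch over no carbon. Taking for each gene the smaller of these ratios, 63 genes had a value from 2 to under 2.5, 52 from 2.5 to under 5, 10 from 5 to under 10, and 7 of at least 10. The lower starch library lay above the highest of the other 4 libraries for each of the 132 genes, by at least 1.57-fold, and by 2-fold or more for 106 of them. These values follow in large part from the selection, which required a 2-fold difference of means.

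At the 2-fold boundary the selection was narrow. The genes just inside it were Mycth_2078041, Mycth_2124224 and Mycth_2304921, with smaller ratios of 2.004, 2.006 and 2.006. Just outside it lay Mycth_92248, Mycth_2084467 and Mycth_2312967, with 1.999, 1.996 and 1.996. Mycth_2304921 was an abundant gene with 577.2 and 588.8 CPM on starch, 289.5 and 291.7 CPM on glucose, and 169.9 and 164.1 CPM without carbon. Mycth_2312967, outside the group, had 35.5 and 36.3 CPM on starch, 18.2 and 17.73 CPM on glucose, and 16.5 and 16.4 CPM without carbon. Nothing in these values sets the genes just inside apart from those just outside. The boundary also depends on scaling, since the rule divides by library totals. With TMM factors (edgeR's scaling by trimmed mean of M-values), 100 genes met the rule, 95 of them among the 132.

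**Figure D2:**
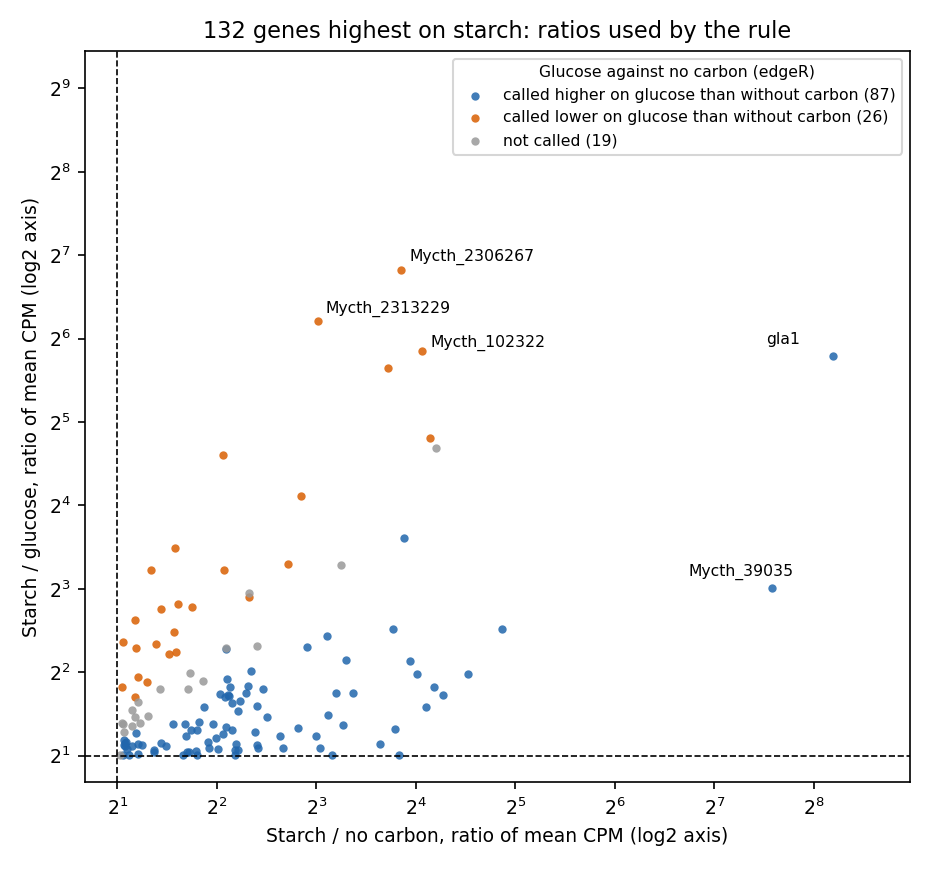
Ratio of mean CPM on starch to glucose (vertical, log2 axis) against the ratio on starch to no carbon (horizontal, log2 axis), one point for each of the 132 genes, coloured by the edgeR call for glucose against no carbon, with dashed lines at the 2-fold limits of the rule. Most points crowd near the limits, and gla1 stands alone at 55.3 and 292.5. The split of colours along the diagonal follows in large part from the axes, since their quotient is the ratio of glucose to no carbon. That ratio uses library totals and the calls use TMM factors, so some genes called higher, such as Mycth_2308157, lie across the diagonal.

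The glucoamylase gene gla1 led the 132 genes by the smaller of its ratios. It had 2527 and 2618 CPM in the starch libraries, against 44.8 and 48.2 CPM on glucose and 9.58 and 8.01 CPM without carbon. The media did not overlap, and the order was starch, glucose, no carbon in every pair of libraries. The ratios of means were 55.3 over glucose and 292.5 over no carbon. By CPM it ranked 20 among the 9110 genes on starch, 3804 on glucose and 6929 without carbon. On a length-corrected scale (RPKM, which is the CPM divided by the gene length in kilobases) it had 1215 on starch, which placed it in the fourth position within the group.

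The other symbol-bearing gene, ganA, was a low-level transcript. It had 21.8 and 20.4 CPM on starch, 4.39 and 4.27 CPM on glucose, and 9.39 and 9.14 CPM without carbon. Here the no carbon libraries lay between starch and glucose, the reverse of the order for gla1. Starch exceeded glucose 4.88-fold and no carbon 2.28-fold, so that ganA passed the rule by little on the no carbon side.

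In all, 7 genes had both ratios at 10 or above. Besides gla1 these were Mycth_98003, Mycth_33936, Mycth_102322, Mycth_2306267, Mycth_2305637 and Mycth_52463. Mycth_102322 had 108.1 and 112.2 CPM on starch, against 2.04 and 1.78 CPM on glucose and 7.15 and 6.04 CPM without carbon. Mycth_33936 reached a like level on starch, with 111.0 and 118.6 CPM, against 4.08 and 4.10 CPM on glucose and 6.42 and 6.54 CPM without carbon. Both were lowest on glucose, and the no carbon libraries lay above the glucose libraries and far below the starch libraries. Mycth_98003 had 48.1 and 49.6 CPM on starch, against 1.89 and 1.90 CPM on glucose and 2.52 and 2.76 CPM without carbon. Mycth_52463 had 56.8 and 53.9 CPM on starch, against 4.54 and 4.53 CPM on glucose and 4.03 and 3.50 CPM without carbon. Both genes were low in both media that lack starch, with Mycth_98003 a little lower and Mycth_52463 a little higher on glucose than without carbon by CPM.

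Low counts on glucose limit the ratios of some of these genes. Mycth_2306267 had 55.2 and 51.8 CPM on starch, 0.561 and 0.381 CPM on glucose, and 3.99 and 3.44 CPM without carbon. Only 20 reads on glucose in both libraries together stood against 2435 on starch. Read ratios here and below are ratios of summed reads, each divided by the summed library totals of its medium. For this gene the read ratio was 115.6, with an exact 95% interval of 74.7 to 189.6 for counting error only. Mycth_2305637 was rarer still, with 12.4 and 13.2 CPM on starch, 0.255 and 0.254 CPM on glucose, and 1.10 and 0.846 CPM without carbon. Its 11 reads on glucose against 583 on starch gave a read ratio of 50.3 (interval 27.9 to 101.4). Mycth_110806, the eighth gene in this order, had 22.1 and 22.8 CPM on starch, 2.45 and 2.16 CPM on glucose, and 2.25 and 2.48 CPM without carbon.

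By length-corrected level on starch, the leading gene was Mycth_75296 at 2981 RPKM. It was followed by Mycth_113600 at 2347, Mycth_61442 at 1868, gla1 at 1215, Mycth_94171 at 1139 and Mycth_105482 at 843 RPKM. Of these 6, all but gla1 and Mycth_94171 belong to that stretch of consecutive genes. Mycth_94171 had 1944 and 2039 CPM on starch, against 835.4 and 859.7 CPM on glucose and 318.9 and 321.4 CPM without carbon, in the same order of media as gla1. The next places were held by Mycth_2308157, Mycth_2315513, Mycth_2311112, Mycth_59005, Mycth_2303328 and Mycth_2303344, at 268 to 695.5 RPKM. The plot of levels by library shows that abundance and ratio were different properties. Of the 12 genes with the highest RPKM on starch, only gla1 was also among the 8 with the largest smaller ratio.

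**Figure D3:**
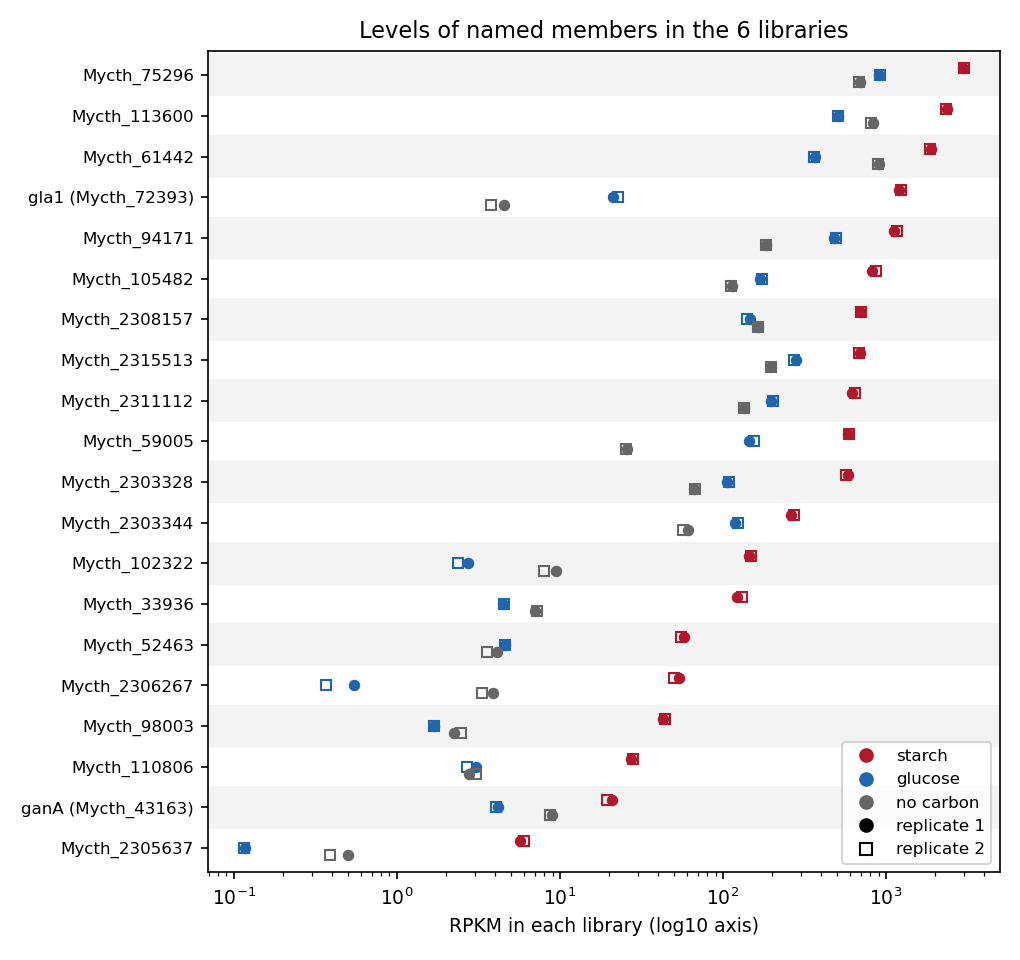
RPKM in each of the 6 libraries (horizontal, log10 axis) for the 12 genes with the highest RPKM on starch, the 8 with the largest smaller ratio, and ganA, with filled and open symbols for the 2 replicates of a medium. Starch symbols lie to the right in every row, and gla1 combines a level of 1215 RPKM on starch with single-digit values without carbon.

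The rule set starch against each other medium and did not compare glucose with no carbon, although it capped both below the starch level. That comparison was tested with edgeR's quasi-likelihood test over 8718 genes, with p-values adjusted by Benjamini and Hochberg over all of them and called at 0.05. All 132 genes entered it. Among them, 87 genes (65.9%) were higher on glucose, where 44.8% of all genes tested were called higher. Another 26 genes (19.7%) were lower on glucose, where 45.7% of all genes tested were called lower. The other 19 genes passed in neither direction. For 9 of these the replicates of both media overlapped by CPM from library totals, a scale without the factors used in the test. The share of such overlaps over all genes tested was not computed. The median log2 fold change was 0.55 in the group (quartiles -0.03 and 1.12) and -0.02 over all genes tested (quartiles -0.98 and 0.95). The genes tested as a whole were not put through the rule, which used library totals, whereas this test used TMM factors. Those factors were 0.900 and 0.901 on glucose, against 1.08 and 1.06 without carbon. How much the selection adds to the differences in shares was not tested, so the shares are a description.

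With a test for a difference of more than 2-fold (glmTreat in edgeR), 34 of the 132 genes (25.8%) were higher on glucose, where 21.7% of all genes were called, and 8 (6.06%) were lower, where 21.4% were called. The members' median absolute log2 fold change was 0.79, below the 0.96 of all genes, and their median standard error was 0.0986. The lower counts shown by this stricter test are thus close to the background for genes higher on glucose and below it for genes lower on glucose. Scaling bears on the split, because the TMM factors raise glucose over no carbon by 0.248 on the log2 scale relative to library totals. Under library totals 70 genes (53.0%) were called higher and 37 (28.0%) lower, where 38.3% and 53.0% of all genes tested were called higher and lower. There, 3 genes turned from higher to lower (Mycth_2308157, Mycth_2293942 and Mycth_2305551, the last 2 named after their values were seen). Under that scaling the median log2 fold change was 0.31 in the group and -0.27 over all genes tested.

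**Figure D4:**
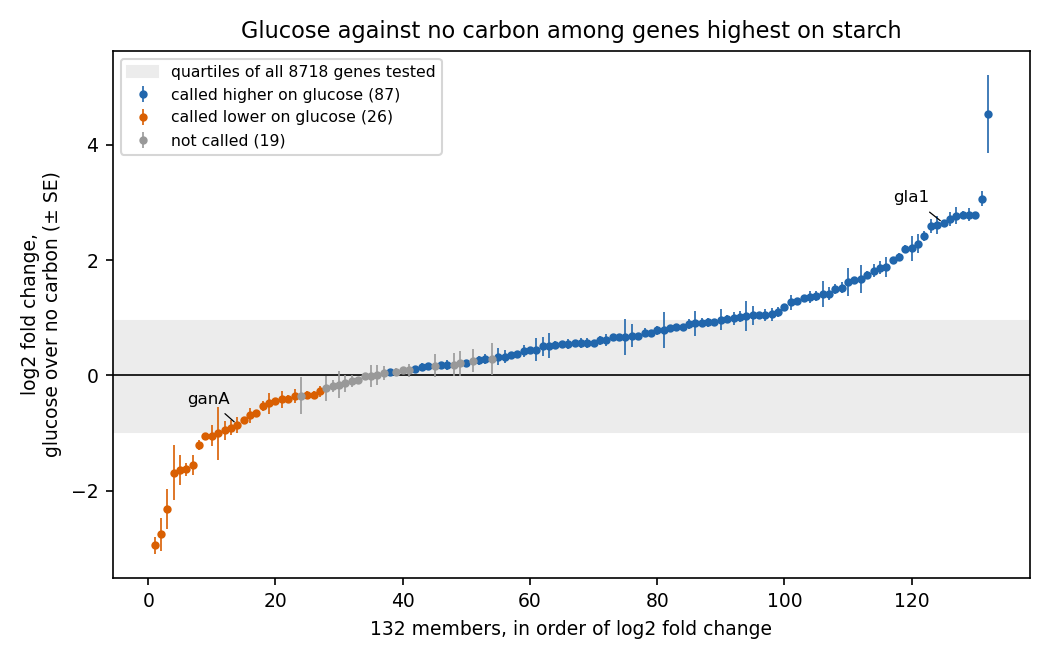
Log2 fold change of glucose over no carbon (vertical, ± SE, edgeR) for the 132 genes in order of their value (horizontal), with the quartiles of all 8718 genes tested as a grey band. The 87 genes called higher and the 26 called lower run from 4.54 to -2.95, and gla1 and ganA lie on opposite sides of 0.

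The 87 genes higher on glucose had a median of 56.7 CPM on starch, with medians of 22.9 CPM on glucose and of 12.9 CPM without carbon, and they carried 78.2% of the group's summed starch level. The glucoamylase gene was among them, 6.24-fold higher on glucose than without carbon (log2 fold change 2.64, SE 0.060, adjusted p = 1.1e-37). Mycth_94171, one of the most abundant genes, was 3.14-fold higher (log2 fold change 1.65, SE 0.028, adjusted p = 3.4e-43). Smaller differences were called for Mycth_2303344, Mycth_2303328 and Mycth_2315513, with log2 fold changes of 1.29, 0.93 and 0.75. Among the most abundant genes the weakest call was that of Mycth_2308157, at 0.06 with an adjusted p of 0.035. It had 309.9 and 296.9 CPM on glucose against 345.0 and 346.4 CPM without carbon by library totals, and its sign turned under other scalings. The call was also lost under DESeq2, and without glucose replicate 1 (0.03) or no carbon replicate 1 (0.05).

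The largest log2 fold changes of glucose over no carbon were those of Mycth_39035, Mycth_2294336, Mycth_59005, Mycth_2298514 and Mycth_2306300. Mycth_59005 had 673.4 and 679.2 CPM on starch, 166.0 and 177.2 CPM on glucose, and 29.8 and 29.1 CPM without carbon. The order was starch, glucose, no carbon in every library. In the fit its level on glucose was 6.93-fold that without carbon (log2 fold change 2.79, SE 0.041, adjusted p = 1.4e-45). Mycth_2306300 had 189.2 and 188.4 CPM on starch, 56.5 and 57.8 CPM on glucose, and 10.5 and 8.97 CPM without carbon. Mycth_2298514 had 68.5 and 68.0 CPM on starch, 23.0 and 22.8 CPM on glucose, and 3.48 and 4.46 CPM without carbon. Both had a log2 fold change of 2.79 as well, and no libraries of different media overlapped.

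Mycth_2294336 and Mycth_39035 were rare transcripts. Mycth_2294336 had 33.7 and 33.2 CPM on starch, 16.2 and 17.1 CPM on glucose, and 2.34 and 2.37 CPM without carbon, and lay close to the 2-fold limit between starch and glucose with a ratio of 2.01. Its log2 fold change of glucose over no carbon was 3.07 (SE 0.14, adjusted p = 1.4e-25). Mycth_39035 had 8.47 and 9.05 CPM on starch, 0.868 and 1.31 CPM on glucose, and 0.0917 and 0 CPM without carbon. Its 2 reads without carbon stood against 48 on glucose and 399 on starch. The read ratio of glucose to no carbon was 22.0 with an exact 95% interval of 5.76 to 186.5, and that of starch to no carbon was 173 with an interval of 47.7 to 1436. The fitted log2 fold change of 4.54 for this gene depends on so few reads.

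The 26 genes lower on glucose than without carbon had a median of 52.4 CPM on starch, with medians of 5.41 CPM on glucose and of 12.3 CPM without carbon. They held 19.7% of the group's summed starch level, and their median length was 1373.5 bases, against 1808 bases for the 87 genes higher on glucose. The part of gene length in the calls was examined by removing the length trend of each library, which left 77 genes (58.3%) higher and 33 (25%) lower. After that step 44.2% of all genes tested were called higher and 45.6% lower. The strongest of the 26 was Mycth_2313229, with 118.8 and 117.4 CPM on starch, 1.63 and 1.56 CPM on glucose, and 15.2 and 14.1 CPM without carbon. It was 7.72-fold higher without carbon than on glucose (log2 fold change of glucose over no carbon -2.95, SE 0.15, adjusted p = 7.8e-24). Mycth_2306267 was next at -2.75 (SE 0.29, adjusted p = 2.7e-12).

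Mycth_55717, Mycth_2305637 and Mycth_104665 followed, all near 10 CPM on starch. Mycth_55717 had 9.98 and 11.5 CPM on starch, 0.459 and 0.423 CPM on glucose, and 3.07 and 2.09 CPM without carbon (log2 fold change -2.32, SE 0.34, adjusted p = 3.3e-08). It rested on 19 reads on glucose, with a read ratio of no carbon to glucose of 5.98 and an interval of 3.65 to 10.3. Mycth_104665 had 10.3 and 10.97 CPM on starch, 0.919 and 0.973 CPM on glucose, and 3.12 and 4.01 CPM without carbon (log2 fold change -1.64, SE 0.26, adjusted p = 1.7e-07). The value of Mycth_2305637 was -1.68 (SE 0.47, adjusted p = 0.001), and its read ratio of no carbon to glucose had an interval of 1.95 to 8.39.

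Of the genes with large starch ratios, Mycth_102322 was also lower on glucose than without carbon (log2 fold change -1.56, SE 0.17, adjusted p = 1.8e-11). The endo-galactanase gene ganA had -0.85 (SE 0.14, adjusted p = 3.2e-07). Mycth_33936 was lower by a smaller amount (-0.41, SE 0.14, adjusted p = 0.0071), and this value was 0.06 once the length trend was removed. Mycth_52463 was higher on glucose (0.51, SE 0.16, adjusted p = 0.0039), a call lost under library totals. Mycth_98003 and Mycth_110806 passed in neither direction, at -0.22 (SE 0.22, adjusted p = 0.33) and 0.21 (SE 0.22, adjusted p = 0.36). The genes with the largest starch ratios were thus found on both sides of this comparison and in between.

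At the boundary of the rule, Mycth_2078041 and Mycth_2304921 had higher levels on glucose than without carbon, at log2 fold changes of 1.42 (SE 0.12) and 1.05 (SE 0.028). Mycth_2124224 had 7.20 and 7.15 CPM on glucose against 5.64 and 8.18 CPM without carbon, where the glucose libraries lay within the spread of the others. Its log2 fold change of 0.32 (adjusted p = 0.036) was 0.05 without no carbon replicate 1. The call was lost there, under DESeq2, and without glucose replicate 1 (0.32) or glucose replicate 2 (0.33).

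Positions along the chromosome were not used by the rule. In the order of protein-coding genes of the RefSeq assembly ASM22609v1, 131 of the 132 genes could be placed. Of these, 27 (20.6%) lay directly next to another gene of the group, whereas 2.81% of all 9097 protein-coding genes lay next to a gene of the group. These 27 genes formed 12 rows, of which 10 were pairs, 1 was a row of 3 and the longest was a row of 4. Neighbouring genes share a chromosome region and are not independent, so these shares are a description. In 2 of the pairs, Mycth_2302633 with Mycth_2302635 and Mycth_2308617 with Mycth_2308621, the annotated spans overlap, and since the strand setting of the counting is not given in the sources used here, their reads cannot be told apart with certainty. In all, 10 of the placed genes (7.63%) overlap an annotated gene, among them Mycth_105482 in the row described next, against 4.87% of all protein-coding genes.

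The longest row consisted of Mycth_61442, Mycth_75296, Mycth_113600 and Mycth_2311112. Mycth_2069815, a short gene of 408 bases outside the group and named here after its values were seen, came next, and after it Mycth_105482, a gene of 7431 bases that is again in the group. Mycth_75296 had the highest CPM of the 132 genes on starch, at 6535 and 6599 CPM, against 1993 and 2016 CPM on glucose and 1514 and 1493 CPM without carbon. Mycth_105482 had 6094 and 6440 CPM on starch, 1253 and 1289 CPM on glucose, and 847.2 and 829.1 CPM without carbon. In both genes every starch library was above every other library, and glucose lay above no carbon.

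Mycth_61442 and Mycth_113600 showed the opposite order of the other media. Mycth_61442 had 3007 and 2984 CPM on starch, 586.0 and 579.2 CPM on glucose, and 1450 and 1427 CPM without carbon. Mycth_113600 had 2997 and 2982 CPM on starch, 641.6 and 642.3 CPM on glucose, and 1058 and 1025 CPM without carbon. These genes, which have Mycth_75296 between them, had nearly the same CPM on starch, and both were lower on glucose than without carbon. Their log2 fold changes were -1.06 (SE 0.026, adjusted p = 2.4e-36) and -0.45 (SE 0.026, adjusted p = 2.6e-21). The genes on either side of Mycth_113600, Mycth_75296 and Mycth_2311112, had the opposite direction (0.66 and 0.82, SE 0.024 and 0.026), as was Mycth_105482 (0.85, SE 0.027).

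Mycth_2069815 had 1209 and 1207 CPM on starch, 339.5 and 343.2 CPM on glucose, and 1425 and 1368 CPM without carbon. It met the 2-fold rule against glucose (3.54-fold) but not against no carbon (0.865-fold), and its log2 fold change of glucose over no carbon was -1.78 (SE 0.026). Per length, it had 2960 RPKM on starch, close to the 2981 RPKM of Mycth_75296, and its 3422 RPKM without carbon was above every other gene of the row in that medium. The plot of the row shows the starch bar as the tallest for each of the 5 genes of the group and the no carbon bar as the tallest for Mycth_2069815. The genes drawn on either side of the row were low or, for Mycth_2311092, similar on all media.

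**Figure D5:**
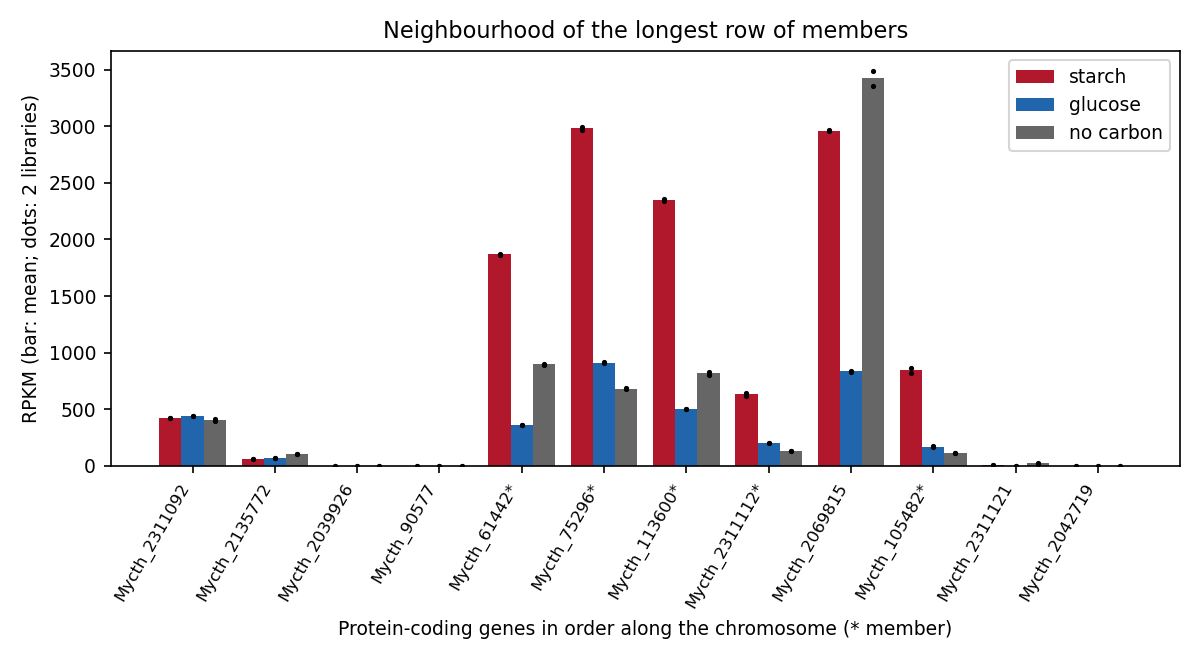
RPKM (vertical) of protein-coding genes in their order along the chromosome (horizontal, an asterisk marks the 132 genes), with bars for the mean and dots for the 2 libraries of starch, glucose and no carbon. Starch is highest for Mycth_61442, Mycth_75296, Mycth_113600, Mycth_2311112 and Mycth_105482, and no carbon is highest for Mycth_2069815.

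Other rows were of lower level. The row of 3 held Mycth_2310685, Mycth_74402 and Mycth_98003. Mycth_2310685 had 49.2 and 48.4 CPM on starch, 24.1 and 22.3 CPM on glucose, and 24.1 and 21.6 CPM without carbon, with overlapping libraries of the other media. Mycth_74402 had 15.8 and 14.1 CPM on starch, 3.11 and 4.78 CPM on glucose, and 3.62 and 3.33 CPM without carbon. So Mycth_98003, with a starch ratio of 25.8 over glucose, lay in a row with genes whose ratios were 2.10 and 3.79. Mycth_2310685 and Mycth_74402 were called higher on glucose than without carbon (0.26 and 0.45, adjusted p = 0.0025 and 0.027). Both calls were lost under library totals. That of Mycth_74402 was also lost under DESeq2, and without glucose replicate 2 (0.08), no carbon replicate 1 (0.51) or no carbon replicate 2 (0.41).

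Among the pairs, Mycth_52463 and Mycth_2306267 both belonged to the 7 genes with the largest ratios, yet differed in direction between glucose and no carbon (0.51 and -2.75). Mycth_84297 and Mycth_2313229 were both lower on glucose, at -0.95 (SE 0.16) and -2.95. Mycth_84297 had 24.0 and 21.2 CPM on starch, 2.71 and 3.68 CPM on glucose, and 7.61 and 7.22 CPM without carbon. These were the pairs with members lower on glucose.

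In 5 pairs both genes were higher on glucose, and 3 of these pairs have spans that do not overlap. Mycth_62625 had 135.2 and 150.2 CPM on starch, 24.7 and 25.1 CPM on glucose, and 10.4 and 10.6 CPM without carbon (2.82-fold higher on glucose than without carbon, SE 0.088 on the log2 scale). Mycth_99098 had 34.0 and 32.6 CPM on starch, 8.22 and 8.63 CPM on glucose, and 1.88 and 2.26 CPM without carbon (log2 fold change 2.29, SE 0.17). Mycth_2310333, next to Mycth_60685, had 49.7 and 47.7 CPM on starch, 19.8 and 19.3 CPM on glucose, and 3.57 and 3.44 CPM without carbon (2.72, SE 0.12). Mycth_60685 had a log2 fold change of only 0.56 (SE 0.055), so that these neighbours shared the order of media and not the size. The pair Mycth_108615 and Mycth_2308895 reached 190.4 and 203.7 CPM and 173.1 and 187.4 CPM on starch, with log2 fold changes of 1.35 and 0.54.

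In the pairs with overlapping spans all 4 genes were called higher on glucose, with 0.61 and 1.82 for Mycth_2302633 and Mycth_2302635 and 0.97 and 1.88 for Mycth_2308617 and Mycth_2308621. In the last 3 pairs, Mycth_2298970, Mycth_100589 and Mycth_2308084 were called higher (1.04, 0.42 and 1.87), while their partners Mycth_2298968, Mycth_2301628 and Mycth_2067632 passed in neither direction (-0.16, 0.17 and -0.01). The call of Mycth_100589 was lost without glucose replicate 2 (0.28). The 24 protein-coding genes directly flanking the 12 rows had median ratios of 1.31 for starch over glucose and 0.869 for starch over no carbon, with genes under 5 CPM included. Of the 16 with at least 5 CPM on starch, 2 were at least 2-fold over glucose, and the share over all such genes was not computed. These were Mycth_2069815, inside the stretch of 6 genes, and Mycth_90182 (8.29-fold, named after its values were seen), which lies next to Mycth_39035 of the group. Of the 12 rows, 6 had the same call in all their genes. Over the whole group, 65.9% of the genes were called higher, 19.7% lower and 14.4% in neither direction. How often unrelated genes with these shares would have the same call was not computed. Whether neighbours shared a call more often than other genes of the group was therefore not tested. The genes of the group that lie beside each other were high on starch together by the selection. They were not always ordered alike between glucose and no carbon.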

How the data were processed

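The authors deposited 1 table of 9110 genes with unnormalized read counts and RPKM values of all 6 libraries, per the file headers. TopHat2 2.0.8b and HTSeq 0.5.4p2 were used, per the submitters' processing notes. Their settings, the strand, the annotation and the build are not given in the sources. The deposited RPKM values equalled the counts per library total and gene length, with 100% of implied lengths whole within 0.001 bases, and served as the length-corrected level.

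CPM is the count divided by the library total, without scaling factors. Glucose was compared with no carbon in R 4.3.3 with edgeR 4.0.16 (filterByExpr, TMM, 1 robust quasi-likelihood fit over all 6 libraries, 3 residual degrees of freedom). Benjamini-Hochberg adjustment was over 8718 genes, with a threshold of 0.05. The fit also borrows spread across genes, with a median of 42.5 prior degrees of freedom, on which the small p-values depend. It was run as well on simulated counts with few genes changed, unlike these data, so that run does not show its performance here. SE is that of the log2 fold change, computed as its absolute value divided by the square root of the quasi-likelihood F statistic. Alternatives were limma 3.58.1 (voom), DESeq2 1.42.0, other scalings and filters, a replicate block, glmTreat and each library left out. Genes named are gla1, ganA, the 12 highest RPKM on starch, the 8 largest smaller ratios, the 5 extremes each way of glucose over no carbon among called genes, the 3 on each side of the 2-fold limit, and genes in rows. The genes and this rule were chosen with earlier results of these data known. Read ratios of genes with at most 20 reads in 1 medium are adjusted for library totals and have exact 95% Clopper-Pearson intervals. Reads carry no molecular identifiers, so intervals cover counting error only. Gene order and symbols came from RefSeq assembly ASM22609v1, of which no coordinate is printed. Lists by function, protein similarity and promoter motifs could not be used without product text or sequences.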

Additional observations from a re-analysis of the deposited data

How the results depend on the processing

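Counts of genes called between glucose and no carbon stayed within 1.5 times of 87 higher and 26 lower under every alternative tried except the test for more than 2-fold, which left 34 and 8. The other alternatives gave 70 to 87 higher and 24 to 37 lower, with 70 and 37 under library totals, 79 and 24 under DESeq2, and 79 to 87 and 24 to 26 with 1 library left out. With the replicate number as a block the counts were 86 and 26. No pairing of libraries by replicate number was seen. The deviations of same-numbered libraries correlated at -0.0026, -0.038 and -0.0056 over the pairs of media. These values cannot exclude a small shared effect. The rule found 128 to 142 genes with 1 library left out, 94 to 100 under other scalings, 117 at a minimum of 10 CPM, 144 at 1 CPM, and 50 when 3-fold was required. Mycth_2308157 turned to -0.08 under upper quartile scaling, -0.19 under library totals and -0.23 with the length trend removed. Removal of that trend also gave 0.06 for Mycth_33936, -0.05 for Mycth_2310685, 0.94 for Mycth_2067632 and 0.55 for Mycth_2298968, and the cause was not tested. Of 882 values of named genes under alternatives, 829 kept the call, and changes of sign between values called in neither fit were counted among these. A further 44 lost the call (21 of them in the test for more than 2-fold), 7 turned sign with a call in either fit, and 2 gained a call. With 2 libraries per medium and no stated independence, small differences between glucose and no carbon are the least secure values, and ratios that rest on 20 or fewer reads are limited by depth.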
